A study of Homo sapiens with 6 samples.

Results

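The intervals described here are 12189 islands of the histone mark H3K27me3, out of 72972 listed for 3 lymphoma cell lines, that lie in 5 stretches of the genome where 1 of the lines had more input reads than the others. They were chosen by the position of their midpoint on hg19 and, through the stretches, by measured values, since the stretches were picked for their high input. The stretches are chromosome 5 between 52 and 180 Mb and all of chromosome 16, both with raised input in Pfeiffer, all of chromosome 7, with raised input in WSU-DLCL2, and all of chromosome 14 and chromosome 11 between 81 and 112 Mb, both with raised input in KARPAS-422. Of the members, 3425 were Pfeiffer islands, 3948 were WSU-DLCL2 islands and 4816 were KARPAS-422 islands. The line with raised input supplied 3162 of them in its own segments, and the other 2 lines supplied 9027 in the same segments.

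Pfeiffer, WSU-DLCL2 and KARPAS-422 are lines of diffuse large B cell lymphoma, and the labels list all 3 as EZH2 mutant. They also give average gIC50 values of 28 nM for Pfeiffer, 134 nM for WSU-DLCL2 and 232 nM for KARPAS-422, without naming the compound. The study profiled lines with different sensitivities to GSK126, an inhibitor of EZH2. Cells were kept in culture medium and fixed with formaldehyde with no drug named, and 1 H3K27me3 library and 1 input library were made per line. Lines with wild-type EZH2, which the title mentions, were not analysed here. With 1 library of each kind per line, and with segments picked from the same lists, every value below is a description, without a p-value. Intervals in brackets are 95% intervals and cover counting error only.

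EZH2 is the enzyme of Polycomb repressive complex 2 that methylates lysine 27 of histone H3, and its trimethylated form marks silent genes and broad silent domains. Germinal centre B cells, the cells from which many of these lymphomas derive, depend on EZH2, and mutations in its catalytic domain raise trimethylation in lymphoma. Input is chromatin sequenced without the antibody, so a stretch of DNA present in more copies gives more input reads as well as more reads in the immunoprecipitate. An island is a run of neighbouring windows with many H3K27me3 reads, joined across short gaps and then held against the input of the same place. DNA copy number was not measured, and its part in the values below was not tested. In a bulk preparation, more cells with the mark and more mark per cell cannot be told apart.

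The autosomal islands held 17024803 H3K27me3 reads for Pfeiffer, 17188115 for WSU-DLCL2 and 16039824 for KARPAS-422. Input reads in the same islands numbered 8800268 for Pfeiffer, 8224578 for WSU-DLCL2 and 5694645 for KARPAS-422. To set lines side by side, the reads per kb of each island were divided by the median of the autosomal islands of its own list, so that a value of 1 is an island of typical density in that line.

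Input reads per kb, the values that chose the segments, ranged widely between them. Within the chromosome 5 segment the median island had 1.40 times the list median in Pfeiffer, against 1.01 for WSU-DLCL2 and 1.03 for KARPAS-422. On chromosome 16 it had 1.31 times in Pfeiffer, against 0.962 for WSU-DLCL2 and 0.942 for KARPAS-422. On chromosome 7 the excess was small over the whole chromosome, with 1.06 times in WSU-DLCL2, against 0.975 for Pfeiffer and 0.983 for KARPAS-422. The WSU-DLCL2 value mixes islands before 60 Mb, with a median of 1.39, and islands after it, with 0.987. Chromosome 14 had 1.36 times in KARPAS-422, against 0.974 for Pfeiffer and 1.00 for WSU-DLCL2. The chromosome 11 segment stood highest, with 2.40 times in KARPAS-422, against 1.00 for Pfeiffer and 1.03 for WSU-DLCL2. The other lines thus lay near 1 in every segment.

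H3K27me3 reads per kb were higher in the raised line too, in all 5 segments and against both other lines. The median island of the chromosome 5 segment had 1.18 times the list median in Pfeiffer, against 0.962 for WSU-DLCL2 and 0.971 for KARPAS-422. Chromosome 16 had 1.29 times in Pfeiffer, against 1.00 for WSU-DLCL2 and 0.998 for KARPAS-422. Chromosome 7 had 1.05 times in WSU-DLCL2, against 0.967 for Pfeiffer and 0.979 for KARPAS-422. The step was again smallest on chromosome 7. Chromosome 14 had 1.18 times in KARPAS-422, against 0.986 for Pfeiffer and 1.01 for WSU-DLCL2. The chromosome 11 segment had 1.77 times in KARPAS-422, against 0.923 for Pfeiffer and 0.962 for WSU-DLCL2. In the raised lines the H3K27me3 multiple stood below the input multiple in the segments of chromosomes 5, 14 and 11, and close to it on chromosomes 16 and 7. Pooled over the segments, 76.5% of the raised lines' islands exceeded their list median in H3K27me3 reads per kb, against 44.7% in the other lines, and 81.7% against 45.9% did so in input.

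**Figure D1:**
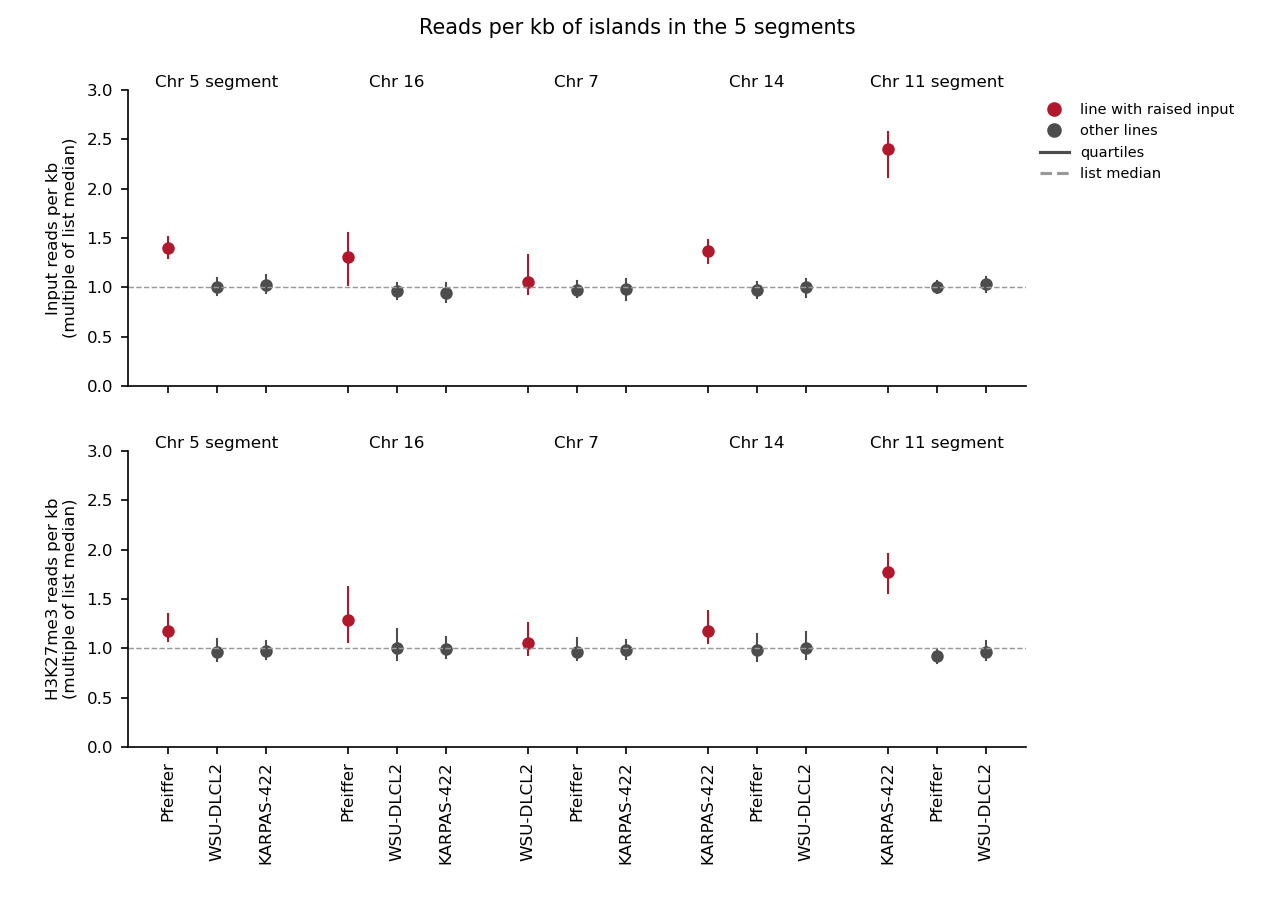
Input reads per kb (upper panel) and H3K27me3 reads per kb (lower panel) of islands in each segment, as multiples of the median of each line's autosomal list; points are medians, bars run between the quartiles, and the line with raised input is red and stands left of the other lines. The KARPAS-422 islands of the chromosome 11 segment stand highest in both panels, at 2.40 for input and 1.77 for H3K27me3, and the lines without raised input stay near 1.

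The fold over input, which the authors' lists give per island after scaling the libraries, was lower in the raised line in every segment. Median folds were 1.34 in Pfeiffer, against 1.49 for WSU-DLCL2 and 1.52 for KARPAS-422, in the chromosome 5 segment. They were 1.58 in Pfeiffer, against 1.63 for WSU-DLCL2 and 1.71 for KARPAS-422, on chromosome 16, and 1.50 in WSU-DLCL2, against 1.57 for Pfeiffer and 1.62 for KARPAS-422, on chromosome 7. The gap was narrower on these chromosomes than in the chromosome 5 segment. On chromosome 14 they were 1.40 in KARPAS-422, against 1.61 for Pfeiffer and 1.57 for WSU-DLCL2. In the chromosome 11 segment they were 1.21 in KARPAS-422, against 1.43 for Pfeiffer and 1.46 for WSU-DLCL2. Each fold rests on its line's own libraries and scaling. Over all autosomes the median fold was highest for KARPAS-422, at 1.61, then 1.58 for Pfeiffer, and lowest for WSU-DLCL2, at 1.54. The raised line lay below its own list in the segments of chromosomes 5, 14 and 11, and by less on chromosome 7. On chromosome 16 Pfeiffer equalled its list, and the other lines stood above theirs. On chromosome 7 after 60 Mb, without raised input, WSU-DLCL2 was also lowest, with 1.53 against 1.57 for Pfeiffer and 1.64 for KARPAS-422.

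The edges of the segments were not equally sharp. In the 1 Mb just inside the start of the chromosome 5 segment, pooled input of Pfeiffer islands was 1.28 times the list median, in the nearest bin outside that held islands, from 50 to 51 Mb, it was 1.22 over 2 islands, and in the last Mb inside the far end and the next Mb it was 1.48 and 1.50. The rest of chromosome 5, before 52 Mb, also had a Pfeiffer input of 1.29 and a median island length of 30.75 kb, so Pfeiffer islands of both stretches of chromosome 5 stood above the list median. Before 52 Mb 30.1% of Pfeiffer islands were at least 50 kb long, 37.8% met 2 or more islands of 1 other line, and 20.6% met none of either line, against 10.4% for WSU-DLCL2 and 21.4% for KARPAS-422 in this last share. On chromosome 11 the far edge was abrupt in KARPAS-422. Its input was 2.16 times the list median between 110 and 111 Mb and 5.51 between 111 and 112 Mb, where the bin holds 1 island, then 0.652 between 112 and 113 Mb over 2 islands and 0.570 in the next Mb over 3. At the near edge the values were 1.41 between 79 and 80 Mb, 1.13 over 1 island in the next Mb and 1.64 over 1 island between 82 and 83 Mb, with no KARPAS-422 island between 81 and 82 Mb. Input there was thus above the median before the segment began.

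Islands were longer and fewer in the raised line in all 5 segments. In the chromosome 5 segment Pfeiffer islands numbered 722 and measured 39.75 kb at the median, against 1055 of 18.75 kb for WSU-DLCL2 and 1288 of 15 kb for KARPAS-422. Chromosome 16 had 540 Pfeiffer islands with a median of 37.5 kb, against 796 of 18 kb for WSU-DLCL2 and 1100 of 17.25 kb for KARPAS-422. On chromosome 7, WSU-DLCL2 islands numbered 1125 and measured 21.75 kb at the median, against 1222 of 18.75 kb for Pfeiffer and 1653 of 14.25 kb for KARPAS-422. The other lines kept lengths close to those of their lists in these 3 segments. Chromosome 14 had 693 KARPAS-422 islands with a median of 33.75 kb, against 773 of 19.5 kb for Pfeiffer and 786 of 18.75 kb for WSU-DLCL2. In the chromosome 11 segment KARPAS-422 islands numbered 82 and measured 68.625 kb at the median, against 168 of 18 kb for Pfeiffer and 186 of 16.875 kb for WSU-DLCL2. For KARPAS-422 the order of the lines was turned round in these segments, since over all autosomes its median length of 15.75 kb was the shortest of the lists, against 20.25 kb for Pfeiffer and 18.75 kb for WSU-DLCL2.

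**Figure D2:**
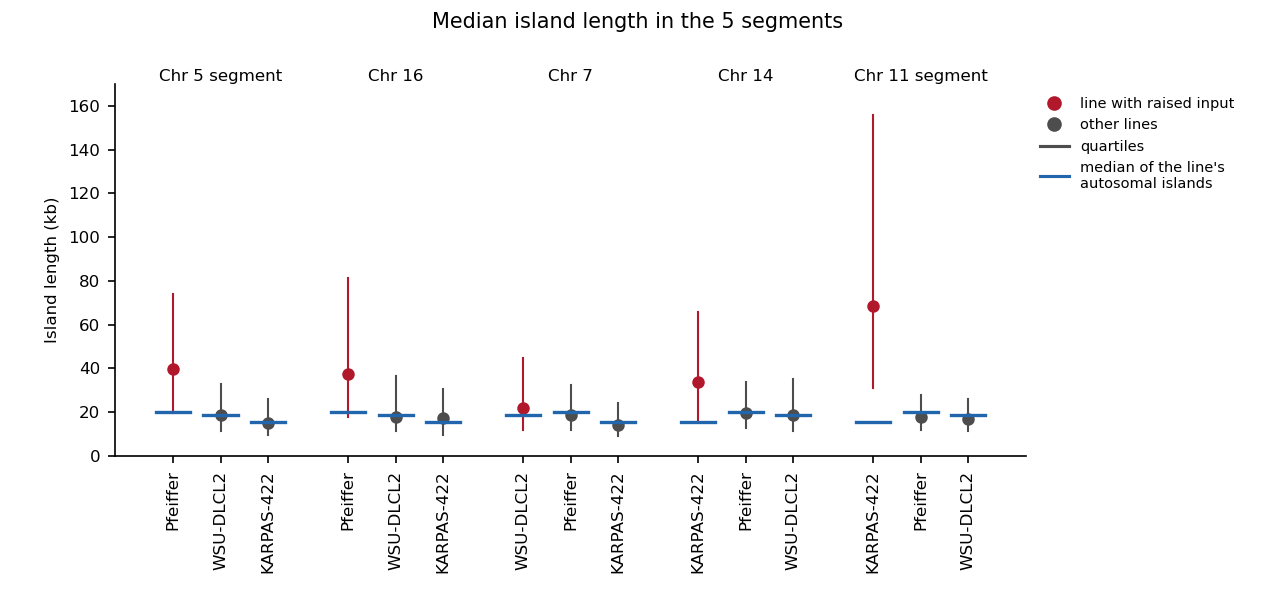
Median island length in kb by segment and line, with bars between the quartiles; blue dashes give the median of all autosomal islands of each line, and the line with raised input is red and stands left of the other lines. The raised line lies above its own dash in each segment, by least on chromosome 7, where WSU-DLCL2 has 21.75 kb against a list median of 18.75 kb.

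Islands of at least 50 kb, called long here, were a larger share of the raised line in every segment. Over all autosomes 17.5% of Pfeiffer islands, 15.8% of WSU-DLCL2 islands and 11.1% of KARPAS-422 islands were long. In the chromosome 5 segment 41.1% of Pfeiffer islands were long (37.5 to 44.8), against 13.8% for WSU-DLCL2 and 8.07% for KARPAS-422. Chromosome 16 had 39.8% in Pfeiffer, against 16.3% for WSU-DLCL2 and 11.1% for KARPAS-422, and chromosome 7 had 22.0% in WSU-DLCL2, against 13.2% for Pfeiffer and 8.11% for KARPAS-422. The Pfeiffer segments thus held a larger share of long islands than the whole of chromosome 7 did. Before 60 Mb of chromosome 7, however, 40.8% of WSU-DLCL2 islands were long, a share close to those of the Pfeiffer segments. After 60 Mb, where input was not raised, it was 12.4%. Chromosome 14 had 35.2% in KARPAS-422, against 14.5% for Pfeiffer and 15.9% for WSU-DLCL2. In the chromosome 11 segment 51 of 82 KARPAS-422 islands, or 62.2%, were long, against 5.36% for Pfeiffer and 8.60% for WSU-DLCL2. Over each whole segment the share of the raised line lies above the share in its whole list, and for the other lines most lie near or below it. The difference turned round on chromosomes 5 and 7 when islands with a fold under 2 were left out of every list, which kept 13 Pfeiffer islands in the chromosome 5 segment and 106 WSU-DLCL2 islands on chromosome 7.

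The longest member, 904.5 kb at chr11:110574001-111478500 in KARPAS-422, was also the densest in input among the named ones. It held 72919 H3K27me3 reads and 37342 input reads, or 4.02 and 5.51 times the list medians per kb, with a fold of 1.19 (1.17 to 1.20). The same stretch was divided among 18 Pfeiffer islands of 8.25 to 66 kb, which covered 54.1% of it, and 18 WSU-DLCL2 islands of 4.5 to 101.25 kb, which covered 76.5% of it. Within that span the other lines' islands stood near their list medians in input, at 1.08 times in Pfeiffer and 1.13 times in WSU-DLCL2. The second in length there, 425.25 kb at chr11:92351251-92776500, met 6 Pfeiffer islands covering 25.04% of it and 2 WSU-DLCL2 islands covering 8.11% of it. Most of its bases were therefore covered in KARPAS-422 without an island in the other lines.

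In Pfeiffer the longest member of the chromosome 5 segment was the 633 kb at chr5:141732001-142365000, with 18701 H3K27me3 reads, 10135 input reads and a fold of 1.59 (1.55 to 1.63). It spanned 11 WSU-DLCL2 islands covering 69.3% of it and 15 KARPAS-422 islands covering 77.4% of it. Another, of 566.25 kb at chr5:168072001-168638250, had a fold of 1.68 and was almost filled in the other lines, with 7 WSU-DLCL2 islands over 94.2% and 8 KARPAS-422 islands over 95.4% of it. On chromosome 16 the longest was 682.5 kb at chr16:17145001-17827500, with an input of 1.68 times the list median and a fold of 1.57. It met 7 WSU-DLCL2 islands over 46.7% and 10 KARPAS-422 islands over 39.6% of its length. Next came 578.25 kb at chr16:86780251-87358500, with a fold of 1.93 and 11 islands of each other line, which covered 83.4% of it for WSU-DLCL2 and 78.6% for KARPAS-422. The 4 domains therefore differ in how much of them the other lines also marked.

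On chromosome 7 the longest WSU-DLCL2 island was 648 kb at chr7:28297501-28945500, with 20958 H3K27me3 reads, 10613 input reads and a fold of 1.56 (1.52 to 1.59). It spanned 15 Pfeiffer islands over 82.2% and 15 KARPAS-422 islands over 66.7% of it, the largest of them 78 kb in Pfeiffer and 73.5 kb in KARPAS-422. The next, 443.25 kb at chr7:3856501-4299750, had a fold of 1.73 and met 5 Pfeiffer islands over 86.1% and 12 KARPAS-422 islands over 73.1% of it. Chromosome 14 had its longest KARPAS-422 islands near its end, 490.5 kb at chr14:104388001-104878500 with a fold of 2.35 and 474.75 kb at chr14:99982501-100457250 with a fold of 2.04. Pfeiffer covered 95.4% and 94.8% of these with 5 and 4 islands, and WSU-DLCL2 covered 89.1% and 91.8% with 8 and 7 islands. These 2 had the highest folds among the longest islands of the 5 segments, and their input was 1.22 and 1.28 times the list median.

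Merging islands, those that met at least 2 islands of 1 other line, were more frequent in the raised line in all 5 segments. Over all autosomes 26.5% of Pfeiffer islands, 23.9% of WSU-DLCL2 islands and 15.6% of KARPAS-422 islands were of this kind. Between 52 and 180 Mb of chromosome 5 they were 310 of 722 Pfeiffer islands, or 42.9% (39.3 to 46.6), against 19.7% for WSU-DLCL2 and 9.78% for KARPAS-422. On chromosome 16 they were 241 of 540 in Pfeiffer, or 44.6%, against 23.4% for WSU-DLCL2 and 12.0% for KARPAS-422. Chromosome 7 had 346 of 1125 in WSU-DLCL2, or 30.8%, against 24.4% for Pfeiffer and 13.0% for KARPAS-422. These 3 shares exceeded those of the same line over its whole list. Chromosome 14 had 241 of 693 in KARPAS-422, or 34.8%, against 16.6% for Pfeiffer and 16.9% for WSU-DLCL2. The chromosome 11 segment had 33 of 82 in KARPAS-422, or 40.2%, against 11.3% in each of Pfeiffer and WSU-DLCL2. KARPAS-422, the line with the smallest share of merging islands genome-wide, thus had more of them on chromosome 14 than either other line there. On chromosome 7 the difference turned round where the fold had to be 2 or more.

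Merging islands held most of the covered bases of the raised line. Their median lengths were 76.5 kb in the chromosome 5 segment, 84 kb on chromosome 16, 58.5 kb on chromosome 7, 74.25 kb on chromosome 14 and 167.25 kb in the chromosome 11 segment. They held 73.5%, 79.7%, 61.8%, 67.2% and 72.8% of the raised line's covered bases in the same order. Outside the 5 segments merging islands held 52.9% of the covered bases of Pfeiffer, 49.4% of those of WSU-DLCL2 and 36.7% of those of KARPAS-422. Further islands that met many others were found in 4 segments. In Pfeiffer, 555 kb at chr16:72925501-73480500 met 14 WSU-DLCL2 and 16 KARPAS-422 islands. Also on chromosome 16, 428.25 kb at chr16:24122251-24550500 met 8 WSU-DLCL2 and 16 KARPAS-422 islands, with an input of 1.78 times the list median. In the chromosome 5 segment, 412.5 kb at chr5:75658501-76071000 met 13 WSU-DLCL2 and 10 KARPAS-422 islands, none over 42.75 kb long in WSU-DLCL2 or 29.25 kb in KARPAS-422. On chromosome 14, 467.25 kb at chr14:78462751-78930000 in KARPAS-422 met 12 Pfeiffer and 11 WSU-DLCL2 islands, and in the chromosome 11 segment 420.75 kb at chr11:95657251-96078000 met 10 Pfeiffer and 4 WSU-DLCL2 islands.

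**Figure D3:**
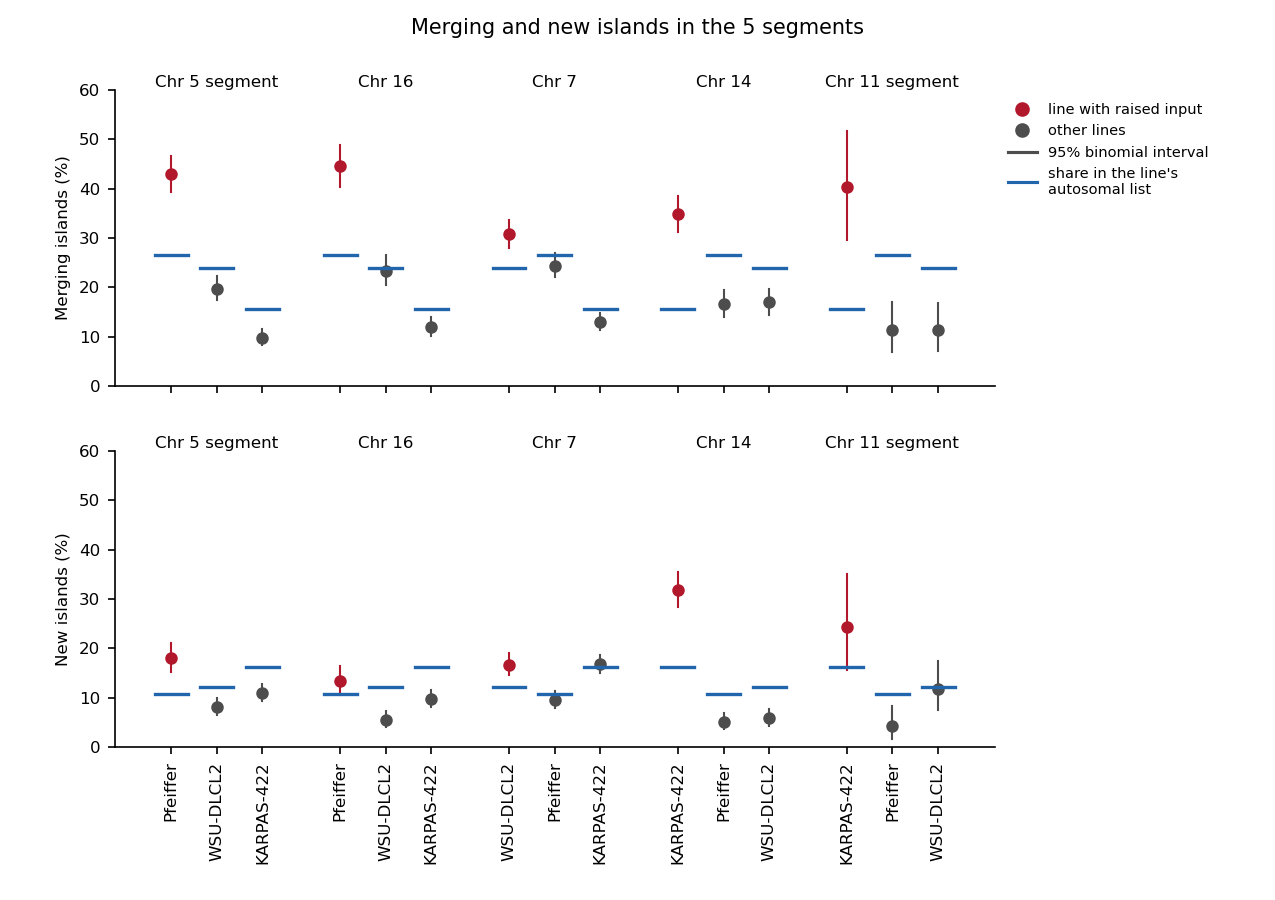
Share of islands that met at least 2 islands of 1 other line (upper panel) and share that met no island of either other line (lower panel), in percent, by segment and line; bars are exact 95% binomial intervals, blue dashes are the shares over each line's autosomal list, and the line with raised input is red and stands left of the other lines. Merging is highest in the raised line in each segment, and new islands reach 31.9% in KARPAS-422 on chromosome 14 while on chromosome 7 WSU-DLCL2 with 16.7% lies beside KARPAS-422 with 16.8%.

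Seen from the other lines, more islands than elsewhere shared 1 island of the raised line with another island of their own list. Of the islands of the chromosome 5 segment, 60.3% in WSU-DLCL2 and 63.6% in KARPAS-422 shared a Pfeiffer island in this way, as did 63.1% of the WSU-DLCL2 and 69.1% of the KARPAS-422 islands on chromosome 16. Outside the segments these shares were 32.7% for WSU-DLCL2 islands and 36.5% for KARPAS-422 islands. On chromosome 7, 47.5% of Pfeiffer and 49.5% of KARPAS-422 islands shared a WSU-DLCL2 island, against 30.9% of Pfeiffer and 35.7% of KARPAS-422 islands outside. The excess was thus smaller on chromosome 7. On chromosome 14, 63.5% of Pfeiffer and 62.2% of WSU-DLCL2 islands shared a KARPAS-422 island, as did 71.4% of Pfeiffer and 66.7% of WSU-DLCL2 islands in the chromosome 11 segment, against 26.6% of Pfeiffer and 25.8% of WSU-DLCL2 islands outside. The reverse was less frequent than elsewhere in every segment. In Pfeiffer, 7.89% of islands of the chromosome 5 segment and 10.0% of those on chromosome 16 shared a WSU-DLCL2 island, against 30.9% outside. In KARPAS-422, 8.08% on chromosome 14 and 0% in the chromosome 11 segment shared a Pfeiffer island, against 36.5% outside. In WSU-DLCL2, 26.7% on chromosome 7 shared a Pfeiffer island, against 32.7% outside.

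New islands, those without a base of overlap with either other line, made up 10.8% of the Pfeiffer list, 12.2% of the WSU-DLCL2 list and 16.2% of the KARPAS-422 list over all autosomes. Their share was larger in the raised line in 9 of the 10 comparisons with another line. A new island of another line must also miss the raised line, which covered more of each segment, so the shares compared are linked. The other lines' shares lay below those of their whole lists, except for KARPAS-422 on chromosome 7. The chromosome 5 segment had 130 new Pfeiffer islands, or 18.0% (15.3 to 21.0), against 8.06% for WSU-DLCL2 and 10.9% for KARPAS-422. Chromosome 16 had 72, or 13.3% (10.6 to 16.5), against 5.53% for WSU-DLCL2 and 9.73% for KARPAS-422. The chromosome 16 interval holds the 10.8% of the whole Pfeiffer list, so new islands there were near the usual share of that line. Chromosome 14 had the most, with 221 new KARPAS-422 islands, or 31.9% (28.4 to 35.5), against 5.05% for Pfeiffer and 5.85% for WSU-DLCL2. The lead over the higher other line was 26 percentage points there, but 11.8 with equal numbers of islands per list, where 106 of 516 were new, and 12.2 at a false discovery rate of 1e-10, where 95 of 427 were new. The chromosome 11 segment had 20 in KARPAS-422, or 24.4%, with a 95% interval of 15.6 to 35.1 that holds the list share of 16.2%. This was above the 4.17% for Pfeiffer and 11.8% for WSU-DLCL2 there. This direction turned round with equal numbers of islands, where 6 of 59 were new and the difference was -2.18 points, and with the read counts divided by the relative input of the segment, where 5 of 60 were new and the difference was -5.11 points. The exception was chromosome 7, with 188 new WSU-DLCL2 islands, or 16.7%, against 9.49% for Pfeiffer and 16.8% for KARPAS-422. Where the fold had to be 2 or more the direction was the opposite, with 30.6% new in the raised lines against 49.3% in the other lines, which rests on 271 islands of the raised lines.

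New islands were shorter than merging ones and had lower folds, in the segments as outside them. Their median length was 17.625 kb in the chromosome 5 segment, 11.625 kb on chromosome 16, 11.625 kb on chromosome 7, 16.5 kb on chromosome 14 and 26.625 kb in the chromosome 11 segment. Their median folds were 1.29, 1.49, 1.45, 1.31 and 1.16 in that order, each below the median fold of the merging islands of the same segment, which were 1.38, 1.59, 1.51, 1.46 and 1.21. Outside the segments new islands measured 13.5 kb in Pfeiffer, 11.25 kb in WSU-DLCL2 and 10.5 kb in KARPAS-422, with folds of 1.47, 1.48 and 1.49. Merging islands there measured 47.25, 46.5 and 42 kb, with folds of 1.64, 1.61 and 1.67. A merging island must reach at least 2 islands of 1 other line, so part of the length difference lies in the definition. On chromosome 14 the new islands were unevenly spread, with 69 of 116 KARPAS-422 islands between 30 and 40 Mb and 37 of 58 between 80 and 90 Mb, but 6 of 76 between 100 and 110 Mb. On chromosome 5, 22 of 50 Pfeiffer islands between 120 and 130 Mb and 20 of 42 between 80 and 90 Mb were new, but 3 of 75 between 130 and 140 Mb. Between 80 and 90 Mb 16 of 40 WSU-DLCL2 islands were new as well, and 4 of 27 KARPAS-422 islands, so a high share there was not limited to Pfeiffer. Between 120 and 130 Mb the counts were 6 of 64 for WSU-DLCL2 and 7 of 50 for KARPAS-422.

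The named new islands with most reads had folds between 1.07 and 2.10. At chr5:121389001-121541250, Pfeiffer had an island of 152.25 kb with 3186 H3K27me3 and 2303 input reads and a fold of 1.19 (1.13 to 1.26), 198 kb from the nearest WSU-DLCL2 island and 202.5 kb from the nearest KARPAS-422 island. The next in the segment, chr5:140849251-140896500, of 47.25 kb, had a fold of 1.86 and an input of 1.52 times the list median. On chromosome 14 the new KARPAS-422 islands with most reads were 149.25 kb at chr14:87922501-88071750, with a fold of 1.30, and 174.75 kb at chr14:38786251-38961000, with a fold of 1.27. Both chromosome 14 domains thus had folds below the median of that list. Those of the chromosome 11 segment had the lowest folds, 209.25 kb at chr11:109063501-109272750 with a fold of 1.07 (1.02 to 1.11) and 152.25 kb at chr11:106053001-106205250 with a fold of 1.11 (1.06 to 1.16). The other named ones were 111 kb at chr7:18381751-18492750 in WSU-DLCL2 with a fold of 1.19, 71.25 kb at chr7:40778251-40849500 with 1.33, and, in Pfeiffer, 38.25 kb at chr16:88878751-88917000 with 1.61 and 43.5 kb at chr16:88113751-88157250 with 2.10. The last 2 lay within 12.75 kb of islands of both other lines.

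The new islands of highest fold were short and had an input below the list median. They were 5.25 kb at chr5:113694751-113700000 with a fold of 2.29 (1.65 to 3.21) in Pfeiffer, and 4.5 kb at chr16:90160501-90165000 with 2.51 (1.72 to 3.76) in the same line. In WSU-DLCL2 the island was 7.5 kb at chr7:148884751-148892250 with 2.73 (2.03 to 3.72). In KARPAS-422 they were 12.75 kb at chr14:106107001-106119750 with 3.33 (2.58 to 4.35) and 9 kb at chr11:83143501-83152500 with 2.18 (1.61 to 3.01). Their input was 0.920, 0.764, 0.720, 0.743 and 0.800 times the list median in the same order. Fold and input share the input count of the island, so the choice by fold favours islands with few input reads.

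Bases that both other lines covered were mostly covered in the raised line too. Of the bases covered in both other lines, the raised line also covered 93.0% in the chromosome 5 segment, 95.9% on chromosome 16, 88.6% on chromosome 7, 94.6% on chromosome 14 and 86.6% in the chromosome 11 segment. On the 17 other autosomes the same share was 82.8% for Pfeiffer, 83.1% for WSU-DLCL2 and 81.3% for KARPAS-422. The unmet island with most reads was the 220.5 kb at chr14:55087501-55308000 in Pfeiffer, with 4797 H3K27me3 reads and a fold of 1.68, which lay 107.25 kb from the nearest KARPAS-422 island and of which WSU-DLCL2 covered 19.4%. In the chromosome 5 segment it was the 141.75 kb at chr5:157722751-157864500 in WSU-DLCL2, 82.5% of it covered by 7 KARPAS-422 islands and 9 kb from the nearest Pfeiffer island. The others were 51 kb at chr16:15984751-16035750 and 78.75 kb at chr11:85824001-85902750 in WSU-DLCL2, and 93.75 kb at chr7:75171001-75264750 in KARPAS-422, which lay 3 kb from a WSU-DLCL2 island.

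The raised line also covered more of each segment. Islands covered 35.7% of the chromosome 5 segment in Pfeiffer, against 23.6% for WSU-DLCL2 and 22.7% for KARPAS-422, and 42.8% of chromosome 16, against 27.5% for WSU-DLCL2 and 32.4% for KARPAS-422. Both Pfeiffer segments were thus covered more than in any other line. They covered 27.2% of chromosome 7 in WSU-DLCL2, against 22.1% for Pfeiffer and 21.8% for KARPAS-422, and 36.9% of chromosome 14 in KARPAS-422, against 22.9% for Pfeiffer and 22.1% for WSU-DLCL2. The chromosome 11 segment was covered to 30.2% in KARPAS-422, against 12.0% for Pfeiffer and 13.5% for WSU-DLCL2. Part of this coverage had no counterpart. Bases that the raised line covered alone made up 29.2% of its covered bases in the chromosome 5 segment, 21.9% on chromosome 16, 23.8% on chromosome 7, 33.3% on chromosome 14 and 53.04% in the chromosome 11 segment. On the 17 other autosomes they made up 14.7% for Pfeiffer, 14.8% for WSU-DLCL2 and 15.1% for KARPAS-422.

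Of the bases covered alone, the largest class lay inside merging islands in 4 of the 5 segments, and inside new islands on chromosome 14. Bases covered alone inside merging islands were 14.7% of the raised line's covered bases in the chromosome 5 segment, 15.0% on chromosome 16, 10.0% on chromosome 7, 13.2% on chromosome 14 and 31.5% in the chromosome 11 segment. On the other autosomes they were 4.45% for Pfeiffer, 4.06% for WSU-DLCL2 and 2.54% for KARPAS-422. Bases in new islands were 6.87%, 2.81%, 6.90%, 13.5% and 9.01% in the order of the segments, against 5.28% for Pfeiffer, 5.89% for WSU-DLCL2 and 8.61% for KARPAS-422 on the other autosomes. For chromosome 16 the share in new islands was thus below that of Pfeiffer elsewhere, and on chromosome 14 the shares in merging and in new islands were nearly equal.

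**Figure D4:**
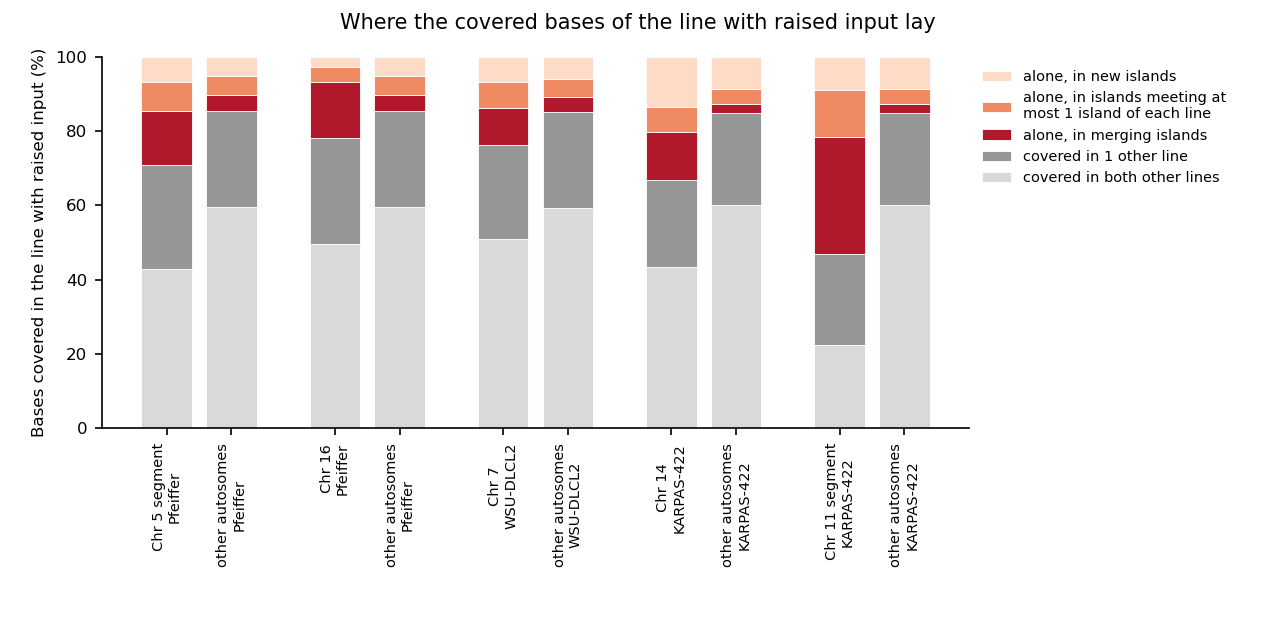
Bases covered in the line with raised input, in percent, divided by whether the other lines covered them too and, for bases it covered alone, by the kind of island they lay in; for each segment the left bar is the segment and the right bar the 17 other autosomes in the same line. The dark red share, alone in merging islands, is 31.5% in the chromosome 11 segment against 2.54% on the other autosomes of KARPAS-422.

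Within chromosome 7 the excess stopped near 60 Mb, close to the centromere. Before 60 Mb the median WSU-DLCL2 island had an input of 1.39 and an H3K27me3 density of 1.26 times the list median, a length of 40.5 kb and a fold of 1.39. There, 43.0% of WSU-DLCL2 islands were merging, against 22.1% for Pfeiffer and 8.91% for KARPAS-422, and 21.8% were new, against 3.84% for Pfeiffer and 12.0% for KARPAS-422. Length, merging and new islands all stood above both other lines there. After 60 Mb the WSU-DLCL2 input was 0.987 times the list median and the median length 17.25 kb, against 19.5 kb for Pfeiffer and 14.25 kb for KARPAS-422. Merging islands were then 24.6% in WSU-DLCL2, against 26.1% for Pfeiffer and 16.4% for KARPAS-422, and new islands 14.2%, against 13.7% for Pfeiffer and 20.9% for KARPAS-422. Beyond 60 Mb WSU-DLCL2 thus lay between the other lines in length and merging. Covered shares were 39.2% in WSU-DLCL2 before 60 Mb, against 23.9% for Pfeiffer and 24.5% for KARPAS-422, and 19.9% after it, against 21.0% for Pfeiffer and 20.2% for KARPAS-422. The values of the whole chromosome 7 thus mix a stretch with raised input and a longer one without it.

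Chromosome 16 had a similar exception at its start. In the outermost 10 Mb the Pfeiffer input was 0.932 times the list median, against 0.954 for WSU-DLCL2 and 0.886 for KARPAS-422. Pfeiffer islands there had a median of 23.25 kb and a fold of 1.88, against 19.5 kb and 1.86 for WSU-DLCL2 and 15 kb and 1.87 for KARPAS-422. Merging islands were 29.2% in Pfeiffer, against 22.3% for WSU-DLCL2 and 11.05% for KARPAS-422. In the rest of chromosome 16 the Pfeiffer input was 1.40 times the list median and the median length 43.125 kb, against 18 kb for WSU-DLCL2 and 17.25 kb for KARPAS-422, with 49.05% of islands merging, against 23.5% for WSU-DLCL2 and 12.2% for KARPAS-422. Pfeiffer covered 43.3% of the outermost 10 Mb, against 29.3% for WSU-DLCL2 and 39.7% for KARPAS-422, so coverage was higher in Pfeiffer there as well.

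Over blocks of 10 Mb with at least 20 islands, the raised line had the longest median in each of 13 blocks of the chromosome 5 segment, 9 of chromosome 16, 8 of chromosome 14 and 3 of the chromosome 11 segment, and in 7 of the 14 blocks of chromosome 7 counted in all lines. The highest block values were 81.75 kb in KARPAS-422 between 100 and 110 Mb of chromosome 11, at an input of 2.46, and 78 kb in Pfeiffer between 20 and 30 Mb of chromosome 16, at an input of 1.73. In WSU-DLCL2 the highest was 65.25 kb between 50 and 60 Mb of chromosome 7, at an input of 1.74. The block of raised input with the shortest islands was chromosome 16 between 30 and 40 Mb, with 19.125 kb at an input of 1.34. Across 49 blocks of the raised lines the Spearman coefficient of median input with median length was 0.82, and 0.78 over the 46 blocks without chromosome 11. These are descriptions without a test, since the blocks of a line share its libraries and island calls, and both measures come from the same islands.

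**Figure D5:**
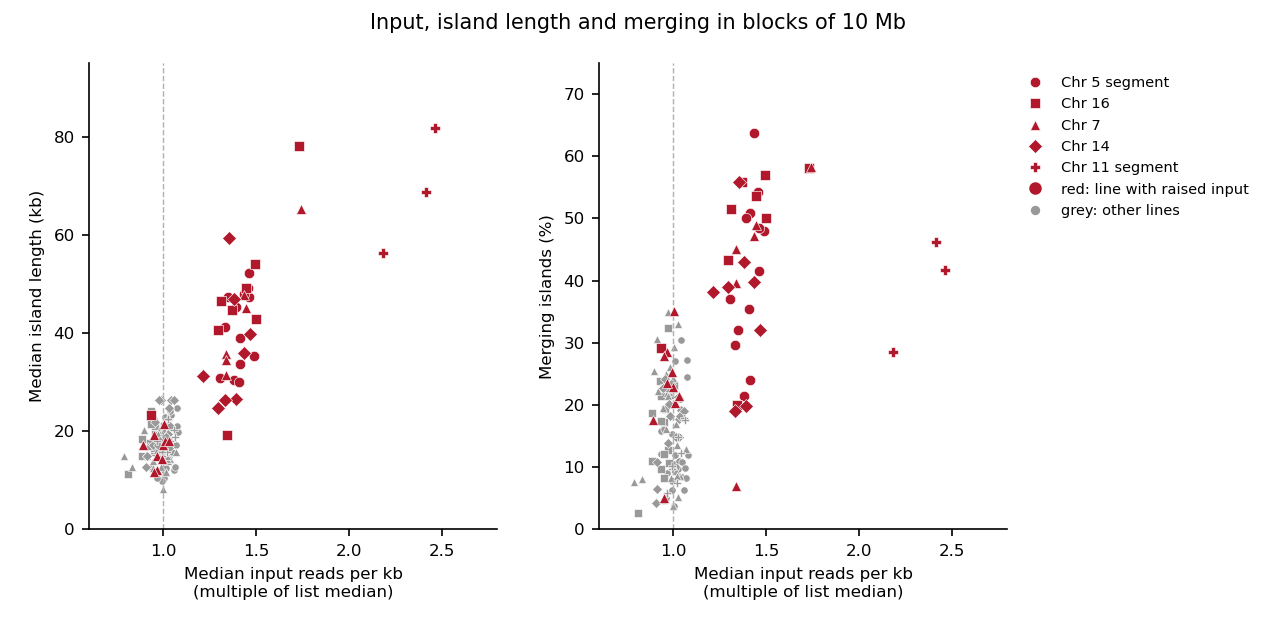
Median input reads per kb, as a multiple of the list median (horizontal axis), against median island length in kb (left panel) and the percentage of merging islands (right panel), for blocks of 10 Mb with at least 20 islands; red symbols are the line with raised input, by segment, and grey symbols the other lines. Red triangles of chromosome 7 fall into a group near 1 among the grey symbols and a group above 1.3, and the 3 chromosome 11 blocks have the highest input, up to 2.46.

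Islands with exactly 1 partner in each other line involve no joining of listed islands. Their median lengths differed by fewer kb between the raised line and the others than those of all islands, in every segment. Choosing such sets leaves out every merging island, and merging islands were the longest class in the raised line. In the chromosome 5 segment they measured 76.5 kb at the median, against 23.25 kb for islands that met at most 1 island per line. A smaller difference was thus partly built into the choice. In the chromosome 5 segment 107 such sets had Pfeiffer islands with a median of 26.25 kb, against 18.75 kb for WSU-DLCL2 and 14.25 kb for KARPAS-422, and the Pfeiffer island was the longer in 75.7% of the sets against WSU-DLCL2 and 88.8% against KARPAS-422. On chromosome 16 the 105 sets had medians of 24 kb in Pfeiffer, against 21 kb for WSU-DLCL2 and 18.75 kb for KARPAS-422. On chromosome 7 the 187 sets had 20.25 kb in WSU-DLCL2, against 18 kb for Pfeiffer and 15.75 kb for KARPAS-422. The raised island was the longer in 62.9% of the sets against WSU-DLCL2 and 69.5% against KARPAS-422 on chromosome 16, and in 52.9% against Pfeiffer and 62.0% against KARPAS-422 on chromosome 7. These shares were lower than in the chromosome 5 segment. Chromosome 14 had 93 sets, with 27.75 kb in KARPAS-422, against 18.75 kb for Pfeiffer and 19.5 kb for WSU-DLCL2, and the KARPAS-422 island was the longer in 63.4% of the sets against Pfeiffer and 65.6% against WSU-DLCL2. In all 14 sets of the chromosome 11 segment the KARPAS-422 island was the longest, with a median of 52.125 kb, against 12.375 kb for Pfeiffer and 16.125 kb for WSU-DLCL2. Outside the segments 3353 such sets had medians of 18.75 kb for Pfeiffer, 18.75 kb for WSU-DLCL2 and 16.5 kb for KARPAS-422. Within sets, the median length ratio of the raised island to its partner was smaller than the segment medians imply. Against WSU-DLCL2 and KARPAS-422 it was 1.26 and 1.57 in the chromosome 5 segment, and 1.08 and 1.125 on chromosome 16. On chromosome 7 it was 1.03 against Pfeiffer and 1.13 against KARPAS-422. Against Pfeiffer and WSU-DLCL2 it was 1.125 and 1.09 on chromosome 14, and 3.27 and 3.12 in the chromosome 11 segment. Outside, the ratios lay between 0.952 and 1.05.

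In the same sets the raised line's H3K27me3 density exceeded that of its partners, by less than its input did. The median ratio of Pfeiffer to WSU-DLCL2 was 1.24 for H3K27me3 and 1.42 for input in the chromosome 5 segment, and 1.17 and 1.39 on chromosome 16. For WSU-DLCL2 over Pfeiffer on chromosome 7 the ratios were 1.07 and 1.08. For KARPAS-422 over Pfeiffer they were 1.25 and 1.41 on chromosome 14 and 1.93 and 2.33 in the chromosome 11 segment. Outside the segments the matching ratios lay between 0.979 and 1.02.

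Dividing both read counts of each raised-line island by the pooled relative input of its segment, and recomputing the p-value, left most members listed. Both counts shared the divisor, so folds did not change. Long islands hold many reads, so most merging islands were bound to be kept, and their being kept tells little. The share kept at the largest listed p-value was 90.03% in the chromosome 5 segment, 97.0% on chromosome 16, 95.5% on chromosome 7, 92.5% on chromosome 14 and 73.2% in the chromosome 11 segment. Merging islands were kept in 306 of 310, 240 of 241, 345 of 346, 238 of 241 and 32 of 33 cases in that order. New islands were lost more often, with 94 of 130, 63 of 72, 172 of 188 and 184 of 221 kept in the same order, but 5 of 20 in the chromosome 11 segment. With divided reads, 25.2% of the raised lines' islands exceeded the list median in H3K27me3 density, against 47.1% in the other lines, and 35.0% against 47.5% did so in input. The divisor, pooled over reads, was above the median relative input of the islands in every segment. It was 1.46 against 1.40 in the chromosome 5 segment, 1.48 against 1.31 on chromosome 16 and 1.26 against 1.06 on chromosome 7. On chromosome 14 it was 1.41 against 1.36, and in the chromosome 11 segment 2.67 against 2.40. After the division input itself thus fell below the list median in most islands. Windows were not called again at the divided counts, so which islands would then be found is not known. Their joining into islands was not recomputed either, so lengths and merging of kept islands are those listed.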

How the data were processed

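Per the submitters' processing notes, Bowtie aligned the reads to hg19 and SICER called the islands. File names state windows of 750 bases, gaps of 2250 bases and FDR 0.001. The sources used here do not give versions, read filters or the treatment of duplicates. The deposited lists give per island whole counts of H3K27me3 and input reads, a p-value, a fold (a ratio scaled by the authors) and a q-value. They name islands only, so the full depth is unknown. Positions are printed counted from 1. Reads per kb were divided by the median over the 22 autosomes. Overlap meant at least 1 base. Shares have exact Clopper-Pearson intervals, and folds exact intervals for a ratio of 2 counts. Members, named intervals and alternatives were chosen with earlier results of these data known. Named intervals were, per segment, the 2 longest, the 2 that met most islands, the 2 new ones with most reads, the new one of highest fold with at least 50 reads, and the unmet island of another line with most reads. No hg19 annotation was used, so no genes are named. Alternatives changed thresholds, joining, list size, edges and overlap. Counting was tested on simulated islands. Python 3.11.15, numpy 2.4.6, pandas 2.3.3, scipy 1.17.1 and matplotlib 3.10.9 were used.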

Additional observations from a re-analysis of the deposited data

How the results depend on the processing

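Pooled shares are given for the raised line. Long islands (33.3%) became 47.7% at a false discovery rate of 1e-10, 42.9% with islands under 5 kb apart joined, 36.3% with equal numbers of islands, 35.4% with divided reads and 40.8% without the 11 blocks of low input. Merging (37.0%) became 20.7% at a fold of at least 2, 32.7% joined, 39.4% with divided reads, 32.8% where at least 50% of the other island had to lie within, and 41.5% without those blocks. New islands (19.96%) became 18.5% at 1e-10, 30.6% at a fold of at least 2, 17.6% with divided reads, 14.9% with no island within 10 kb and 22.4% without those blocks. Islands above the median in H3K27me3 (76.5%) became 79.5% at 1e-10, 64.9% at that fold, 25.2% with divided reads and 87.5% without those blocks. In input (81.7%) they became 61.3%, 35.0% and 96.3% under the last 3. In percentage points against the higher other line, a fold of at least 2 gave -6.65 (long) and -27.2 (new) in the chromosome 5 segment, -1.83 (long) and -7.63 (merging) on chromosome 7, -26.1 (new) on chromosome 16, -17.5 (new) on chromosome 7 and -19.4 (new) on chromosome 14. New islands of the chromosome 11 segment gave -2.18 with equal numbers and -5.11 with divided reads, against 12.6 as listed. The cause was not tested. The raised line stood above both others in 41 of 44 values for long islands, 47 of 49 for merging and 37 of 49 for new islands, of which chromosome 7 gave 4 of 10. Some of these values repeat the listed one. Leaving out the chromosome 11 segment changed no value of the other segments, and leaving out low-input blocks changed only chromosomes 16 and 7. Leaving out islands of over 3 times the median input kept 3158 of the 3162 islands of the raised lines. Divided reads kept the listed lengths. The tally is therefore not a count of separate checks. Leaving out low-input blocks or the chromosome 11 segment was added after seeing the data. No paired analysis was possible because each line has 1 library of each kind. Folds of KARPAS-422 rest on the fewest input reads in islands.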
